A study of Mus musculus with 4 samples.

Results

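SHP binding was examined at the 9 genes that break down phenylalanine, tyrosine and tryptophan in the liver, Tat, Hpd, Hgd, Fah, Tdo2, Afmid, Kmo, Kynu and Haao, out of 22380 protein-coding genes of the GENCODE M1 annotation (mm9). The genes were named for their place in the pathway, but with earlier results of these data known, so the shares set beside all genes below describe them and do not test them. Every SHP peak within 5 kb of a gene body was taken. Wild-type male C57BL/6 mice aged 8 to 12 weeks had been fasted for 12 h. Each was given vehicle or FGF19 (1 mg/kg) through the tail vein, and the liver was taken 2 h later. Both groups share strain, sex, genotype and fast, and differ in the injection. Chromatin was precipitated with an antibody to SHP (sc-30169), and DNA of 3 mice was pooled, leaving 1 ChIP and 1 input library per treatment. There is no replicate error, no difference between the groups has a p-value, and the 95% intervals given here cover counting error only.

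SHP (Nr0b2) has the fold of a nuclear receptor but no domain that binds DNA, and it represses genes through the factors that hold it on chromatin. FGF19, and its mouse counterpart FGF15, is an intestinal hormone released after a meal that acts on hepatocytes. In the liver, tyrosine, which is also made from phenylalanine, is first transaminated by TAT, oxidised by HPD, ring-opened by HGD and finally split by FAH into fumarate and acetoacetate. Tryptophan is opened by TDO2, and its product is carried on by AFMID, KMO, KYNU and HAAO towards quinolinate and NAD. Tat and Tdo2 are classical glucocorticoid-induced genes of the fasting liver.

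SHP peaks were listed at 3 of the 9 genes after vehicle, Tat, Hpd and Tdo2, which is 33.3% (exact binomial interval 7.49 to 70.1). After FGF19 they were listed at 5, the same 3 and also Fah and Kmo, which is 55.6% (21.2 to 86.3). Of all protein-coding genes, 7.93% had a peak within 5 kb after vehicle and 16.3% after FGF19. Both lists held a peak at 3 of the 9 genes, against 4.31% of all genes, and only the FGF19 list at 2 of the 9, against 12.0% of all genes. No gene of the 9 had a peak only after vehicle, a class that holds 3.62% of all genes. Hgd, Afmid, Kynu and Haao had no peak in either list. By branch, 2 of the 4 phenylalanine and tyrosine genes carried a peak after vehicle and 3 after FGF19, and 1 and then 2 of the 5 tryptophan genes did. The peaks at Tat, Hpd and Tdo2 lay in the last exon, at the far end of the gene from its promoter, in both lists.

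DNA at these peaks is shown because the 5 genes fall into 2 kinds of site. All sequences are from mm9 and run 5′ to 3′. The first 3 are stretches that overlap the peaks at the 3 last exons, read on the coding strand of each gene, with the coding part of the last exon in capitals and the intron before it in lower case. They come from chr8:112522532-112522786 (plus strand) in Tat, chr5:123621990-123622109 (minus strand) in Hpd and chr3:81762716-81762915 (minus strand) in Tdo2. The stretch of Hpd contains both of its summits, whereas the summits of Tat and Tdo2 lie farther on, in the 3′ untranslated region, and are not printed.
Tat last exon: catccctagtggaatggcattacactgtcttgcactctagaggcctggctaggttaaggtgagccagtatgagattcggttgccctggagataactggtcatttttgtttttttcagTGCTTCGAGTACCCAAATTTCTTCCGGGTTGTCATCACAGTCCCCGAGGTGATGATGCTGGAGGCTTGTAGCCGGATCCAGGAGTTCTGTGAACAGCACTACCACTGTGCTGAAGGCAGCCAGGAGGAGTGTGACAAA
Hpd last exon: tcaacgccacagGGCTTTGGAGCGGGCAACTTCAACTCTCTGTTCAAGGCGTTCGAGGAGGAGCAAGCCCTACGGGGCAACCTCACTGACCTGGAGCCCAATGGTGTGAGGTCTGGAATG
Tdo2 last exon: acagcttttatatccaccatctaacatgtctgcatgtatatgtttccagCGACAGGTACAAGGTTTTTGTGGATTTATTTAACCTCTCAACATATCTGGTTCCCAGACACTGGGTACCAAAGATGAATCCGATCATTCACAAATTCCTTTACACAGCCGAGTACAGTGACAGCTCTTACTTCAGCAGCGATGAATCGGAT

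The other 2 are sites listed only after FGF19. The Fah sequence is the 300 bases before the start of transcript Fah-001, chr7:91754338-91754637 on the minus strand, with the NF-Y letters attggc in capitals. The Kmo site is chr1:177555405-177555704, shown on the minus strand because it holds the first coding exon of Fh1, which is in capitals. Fh1 encodes the Krebs cycle enzyme fumarate hydratase and runs opposite to Kmo.
Fah upstream: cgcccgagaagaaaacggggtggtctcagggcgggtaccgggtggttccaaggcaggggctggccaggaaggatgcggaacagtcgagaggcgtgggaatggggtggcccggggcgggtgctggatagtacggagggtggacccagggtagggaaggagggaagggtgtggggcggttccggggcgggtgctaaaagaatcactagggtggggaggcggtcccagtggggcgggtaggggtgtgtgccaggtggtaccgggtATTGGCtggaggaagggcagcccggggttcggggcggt
Kmo and Fh1: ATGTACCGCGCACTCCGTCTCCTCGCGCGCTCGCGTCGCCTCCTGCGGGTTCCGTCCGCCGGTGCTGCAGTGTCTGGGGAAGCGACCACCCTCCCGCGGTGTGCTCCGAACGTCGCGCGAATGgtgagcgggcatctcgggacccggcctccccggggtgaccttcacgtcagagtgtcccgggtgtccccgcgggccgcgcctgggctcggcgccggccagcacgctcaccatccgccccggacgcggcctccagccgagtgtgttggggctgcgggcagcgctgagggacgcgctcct
The GC content of these 300 base stretches was 68.0% for Fah, with 20 CpG, and 74.0% for the Kmo and Fh1 site, with 44 CpG. Per 100 bases this was 6.67 and 14.7 CpG, next to 1.96 for the Tat stretch, 4.17 for Hpd and 2.5 for Tdo2. These values depend on the stretch printed, since those of Tat and Tdo2 leave out the summits. In the 201 bp around the summits, Tat had 9 CpG after vehicle and 10 after FGF19, Hpd 5 and 6, and Tdo2 2 and 3. After FGF19, Fah had 12 and the Kmo and Fh1 site 29. The median over all peaks was 15 in the vehicle list and 20 in the FGF19 list.

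**Figure D1:**
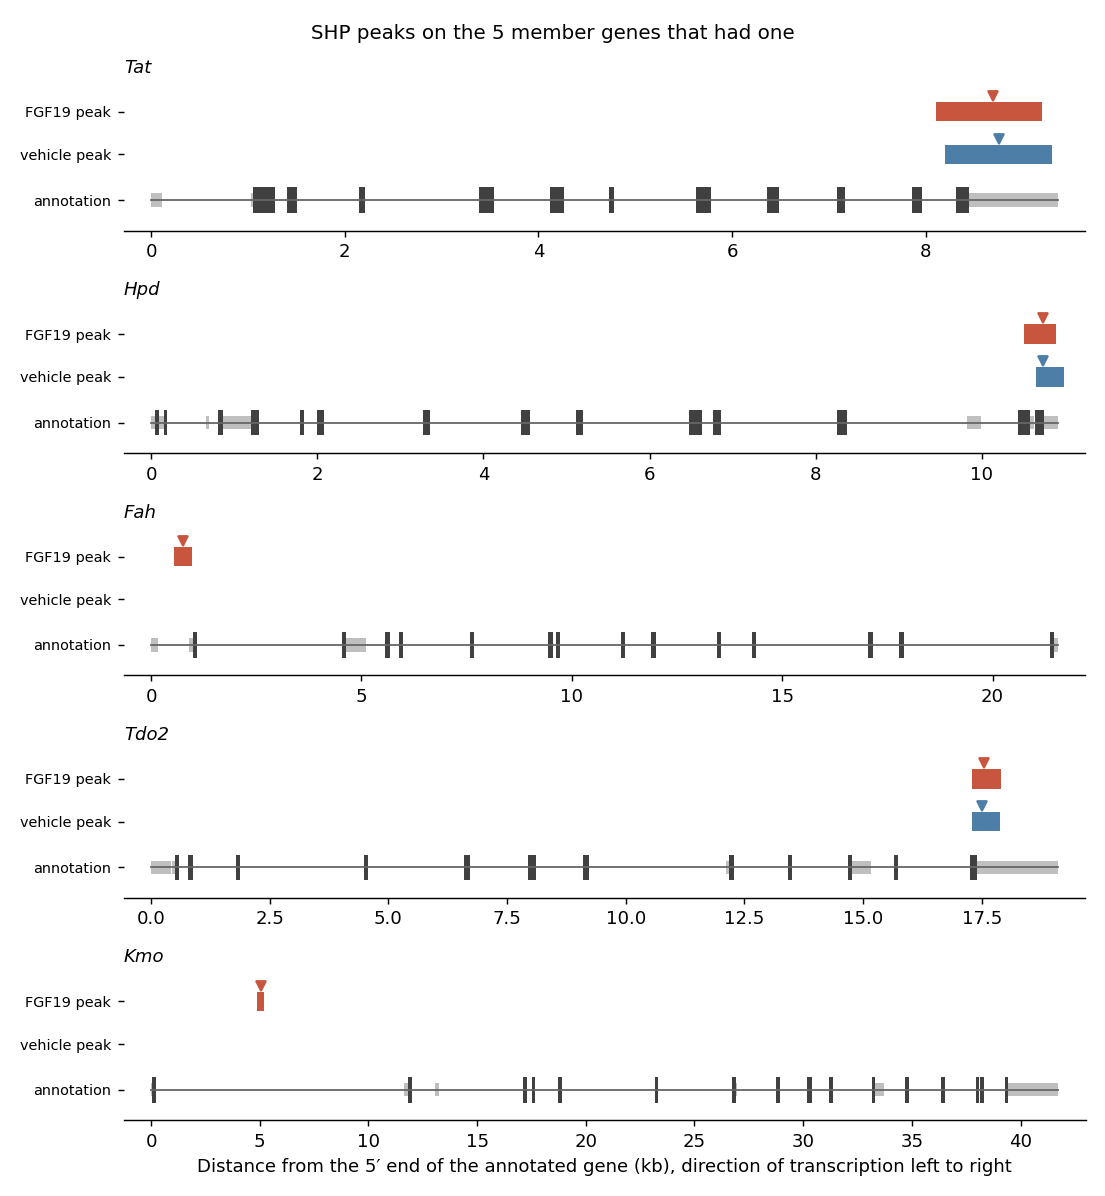
Position of SHP peaks on the 5 genes that had one, in kb from the 5′ end of the annotated gene, with coding exons as tall dark boxes, other exon sequence as low grey boxes, vehicle peaks in blue, FGF19 peaks in red and summits as triangles. At Tat, Hpd and Tdo2 both lists have their peak over the last exon, while Fah and Kmo have a peak near the 5′ end after FGF19 only.

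For each peak 4 quantities were used. Pileup is the number of extended ChIP tags over the summit. Fold enrichment is that pileup over a local background taken from the input. The background itself is not in the files and was worked back from the 2 values, so it is on the scale of the ChIP pileup. Its lowest value, 1.99 tags in the vehicle list and 1.87 in the FGF19 list, equals the genome-wide average expected for that ChIP library. The −log10 q-value ranks the peak in its list. The vehicle ChIP library had 15473647 tags after filtering and the FGF19 library 13444078, and the lists hold 1508 and 3155 peaks, with a median pileup of 24 in both and a median fold enrichment of 4.14 and 4.05. Pileup is therefore also given as normalised pileup, which is the pileup per 1000000 tags of its ChIP library.

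Tat encodes tyrosine aminotransferase, the rate-limiting first step of tyrosine breakdown, and of the 9 genes it had the largest pileup in both lists. By fold enrichment it was the highest of the 9 after vehicle. After FGF19 Hpd (rank 114 of its list) stood just above Tat (rank 115), and both values round to 6.82. The gene (ENSMUSG00000001670.7) lies at chr8:112514337-112523703 on the plus strand. Its vehicle peak, chr8:112522532-112523642, was 1111 bp long, and its FGF19 peak, chr8:112522444-112523531, was 1088 bp long. The peaks shared 1000 bp, and the summits were 61 bp apart. These are broad peaks, the 18th longest of 1508 after vehicle and the 29th longest of 3155 after FGF19.

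The pileup at Tat was 53 tags after vehicle (Poisson interval 39.7 to 69.3) and 54 after FGF19 (40.6 to 70.5). The normalised pileup was 3.43 and 4.02, a ratio of FGF19 to vehicle of 1.17 with an interval of 0.788 to 1.75. The pileup difference was thus within counting error. The fold enrichment was 11.9 after vehicle, rank 31 of its list, and 6.82 after FGF19, rank 115, a log2 ratio of -0.81. The local input background was 3.53 tags after vehicle and 7.06 after FGF19. Fold enrichment was lower after FGF19 while the ChIP pileup was not, and the input background beside it was 2.0 times higher.

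Both Tat summits lay in the 3′ untranslated part of the last exon, 304 bp after the first base of the stop codon with vehicle and 243 bp after it with FGF19. The nearest start site of a coding Tat transcript was 8685 bp and 8624 bp away. No other annotated gene lay within 5 kb of these peaks. Within the 201 bp around either summit no match was found to any of the 6 motifs searched, and the GC content was 56.2% and 55.2%.

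Hpd encodes 4-hydroxyphenylpyruvate dioxygenase, which takes up the product of TAT. The gene (ENSMUSG00000029445.7) lies at chr5:123621816-123632734 on the minus strand, and its peaks were chr5:123621752-123622085 after vehicle and chr5:123621843-123622231 after FGF19. They shared 243 bp, and their summits were 6 bp apart. The vehicle summit lay 13 bp before the first base of the stop codon and the FGF19 summit 7 bp before it, in the coding part of the last exon shown above.

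At Hpd the pileup was 23 tags after vehicle (14.6 to 34.5) and 24 after FGF19 (15.4 to 35.7), and the normalised pileup was 1.49 and 1.79, a ratio of 1.2 (0.649 to 2.23). This difference too was within counting error. The fold enrichment was 3.56 after vehicle and 6.82 after FGF19, a log2 ratio of 0.94, and the −log10 q-value was 3.87 and 10.9. Of the 678 regions common to both lists, only 9 had a larger ratio of fold enrichment. The local input background at Hpd was 5.74 tags after vehicle and 2.66 after FGF19, and only 10 of the 678 regions had a lower ratio of background.

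The position of the Hpd peak depends on the annotation. A non-coding transcript, Hpd-006, starts inside the gene, and the summits lay 918 bp and 924 bp downstream of that start. The nearest start of a coding Hpd transcript was 3922 bp and 3928 bp away. The non-coding gene Gm17627 overlaps Hpd, and Setd1b, which encodes a histone H3 lysine 4 methyltransferase, lies within 5 kb of the peaks, so the site cannot be given to Hpd alone. Both summit windows held the letters AGGTCA once, the half-site that most nuclear receptors bind, and in the printed Hpd sequence it reads TGACCT, on the opposite strand.

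Hgd encodes homogentisate dioxygenase, the enzyme lost in alkaptonuria, and it had no peak. Its nearest peak was 918091 bp away after vehicle and 456895 bp after FGF19. It was thus far from any listed SHP site.

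Fah encodes fumarylacetoacetase, the last enzyme of tyrosine breakdown and the one lost in hereditary tyrosinaemia. The gene (ENSMUSG00000030630.9) lies at chr7:91733669-91755232 on the minus strand. It had a peak only after FGF19, chr7:91754252-91754695, 444 bp long, with its summit 130 bp upstream of the start of Fah-001. This was the only peak of the 8 within 1 kb of a coding start site of the gene it was assigned to. The longer transcript Fah-002 starts farther upstream, so the summit also lies in its intron, 765 bp inside the annotated gene.

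At Fah the pileup was 21 tags (13.0 to 32.1), the normalised pileup was 1.56, the fold enrichment was 4.55 and the −log10 q-value was 5.68. The fold enrichment ranked 948th of 3155, above the list median of 4.05, and the pileup was below the median of 24. The nearest vehicle peak was 82957 bp from the gene. Absence from the vehicle list means that no peak passed the authors' cutoff there, and signal below the cutoff was not analysed here. The Fah window was the only one of the 8 with the NF-Y letters ATTGGC, which were present in 11.1% of all FGF19 peaks.

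Tdo2 encodes tryptophan 2,3-dioxygenase, the first and rate-limiting enzyme of hepatic tryptophan breakdown. The gene (ENSMUSG00000028011.9) lies at chr3:81761012-81780124 on the minus strand. The peaks, chr3:81762234-81762835 after vehicle and chr3:81762214-81762823 after FGF19, were 602 and 610 bp long and shared 590 bp. They lay wholly within exon sequence of Tdo2. The summits were 45 bp apart in the 3′ untranslated part of the last exon, 96 bp after the first base of the stop codon with vehicle and 141 bp after it with FGF19.

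At Tdo2 the pileup was 28 tags after vehicle (18.6 to 40.5) and 34 after FGF19 (23.5 to 47.5). The normalised pileup was 1.81 and 2.53, a ratio of 1.4 (0.823 to 2.39), with an interval that again spans equality. The fold enrichment was 4.83 after vehicle and 4.0 after FGF19, a log2 ratio of -0.27, and the local input background was 5.0 and 7.74 tags. As at Tat, the fold enrichment was lower after FGF19 and the normalised pileup was not. The windows around the Tdo2 summits were the richest in A and T of the 8, with a GC content of 32.8% and 29.9%, and held no match to any motif searched. Ctso, which encodes the protease cathepsin O, lies within 5 kb of the peaks.

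Kmo encodes kynurenine 3-monooxygenase, and its peak is the least secure of the 8 as a Kmo site. The gene (ENSMUSG00000039783.9) is annotated at chr1:177550512-177592247 on the plus strand, and the FGF19 peak, chr1:177555401-177555687, has its summit 5061 bp inside it. That part of the gene belongs to Kmo-002, a transcript annotated as subject to nonsense-mediated decay. The summit lies 6554 bp upstream of the nearest coding start of Kmo, and 130 bp downstream of a start of Fh1. With gene bodies taken from protein-coding transcripts alone, the peak was farther than 5 kb from Kmo.

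At the Kmo and Fh1 site the pileup was 22 tags (13.8 to 33.3), the normalised pileup was 1.64, and the fold enrichment was 4.07, rank 1536 of 3155. It was close to the list median. The nearest vehicle peak was 1779910 bp from Kmo. The summit window had a GC content of 74.6%, the highest of the 8, and held AGGTCA once.

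The remaining tryptophan genes had no peak within 5 kb. Afmid, the formamidase that follows TDO2, came nearest, with an FGF19 peak of fold enrichment 3.14 at 9157 bp from the gene, and its nearest vehicle peak was 357955 bp away. Members with a peak all had it at 0 bp from the gene body, and Afmid was the nearest of those outside the 5 kb limit. For Kynu, which encodes kynureninase, the nearest peak was 6613763 bp away after vehicle and 1244100 bp after FGF19. For Haao, which encodes 3-hydroxyanthranilate dioxygenase, it was 124829 bp and 341065 bp away.

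**Figure D2:**
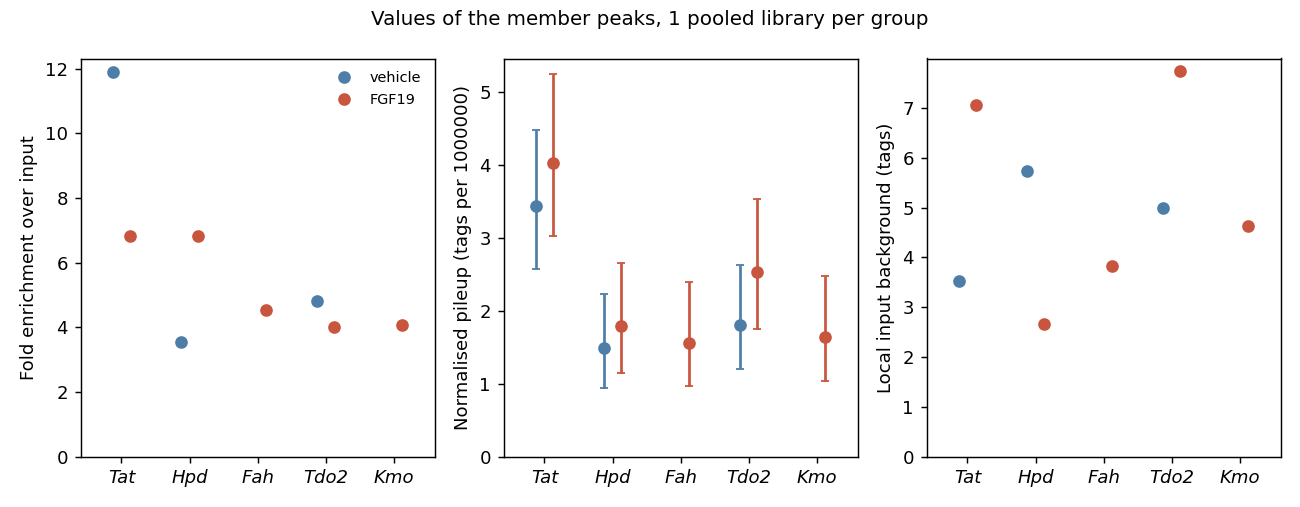
Fold enrichment (left), normalised pileup in tags per 1000000 ChIP tags (middle, bars are Poisson 95% intervals) and local input background in tags (right) of the 8 peaks, vehicle in blue and FGF19 in red, with 1 pooled library per group. Fold enrichment is 11.9 and 6.82 at Tat and 3.56 and 6.82 at Hpd, whereas the pileup intervals of vehicle and FGF19 overlap at Tat, Hpd and Tdo2 and the background stands in the opposite order to the fold enrichment.

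The log2 ratios of the 3 shared sites were set beside those of all 678 common regions, where the median was -0.02 for fold enrichment (quartiles -0.36 and 0.32) and 0.2 for normalised pileup (quartiles -0.02 and 0.43). By normalised pileup, Tat (0.23), Hpd (0.26) and Tdo2 (0.48) were all above equality, and Tat and Hpd were close to that median. By fold enrichment Tat was near the low end, with 54 regions lower, Hpd near the high end and Tdo2 in between, with 30.1% of regions lower. The ratio of background stood in the reverse order, higher than 95.4% of regions at Tat, 83.5% at Tdo2 and 1.47% at Hpd. Fold enrichment and normalised pileup pointed in opposite directions at 246 of the 678 regions (36.3%, Wilson interval 32.8 to 40.0), among them Tat and Tdo2. Fold enrichment contains the background by construction, and how much of the background ratio is input counting error was not tested.

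**Figure D3:**
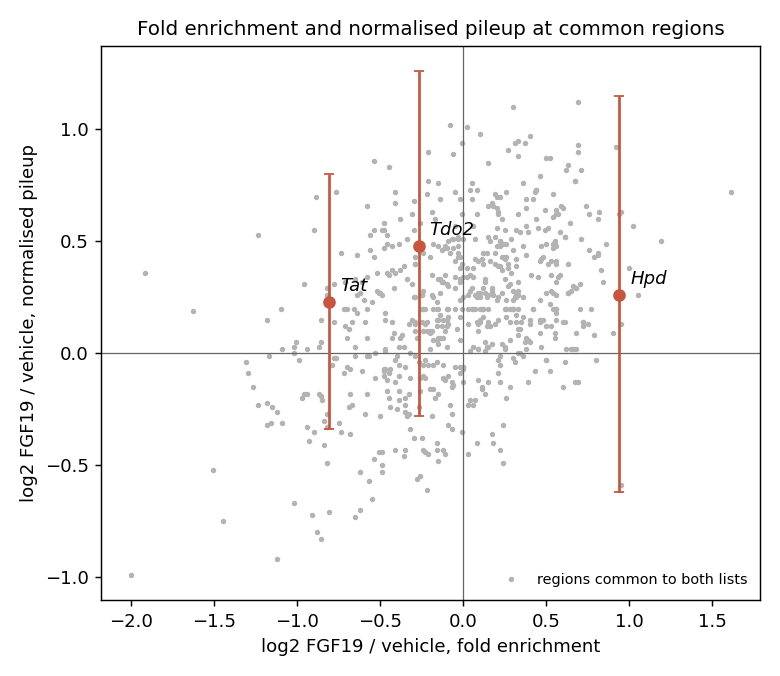
log2 ratio of FGF19 to vehicle in fold enrichment (horizontal) against the log2 ratio in normalised pileup (vertical) for the 678 regions common to both lists (grey), with Tat, Hpd and Tdo2 in red and vertical bars for their 95% counting intervals. The 3 genes spread from -0.81 to 0.94 horizontally but only from 0.23 to 0.48 vertically, and each vertical bar crosses 0.

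The last-exon position shared by Tat, Hpd and Tdo2 was uncommon among all genes, most of which had no peak. Of the protein-coding genes with a peak, 9.36% had such a summit after vehicle and 5.31% after FGF19, by coding starts. Of the members with a peak, it was 3 of 3 and 3 of 5. A summit in the gene's own last exon and over 1 kb from any coding start was found for 3 of the 9 genes in each list, against 0.742% of all protein-coding genes after vehicle, 0.867% after FGF19 and 0.536% in both lists. Leaving out summits within 1 kb of a start of any transcript removes Hpd and leaves 2 of the 9, against 0.706% after vehicle, 0.769% after FGF19 and 0.509% in both lists. By contrast, a summit within 1 kb of an own coding start was found for 0 of the 9 after vehicle, against 5.43% of all genes, for 1 of the 9 after FGF19, against 12.3%, and for 0 of the 9 in both lists, against 2.55%. With starts of any transcript, which adds Hpd, it was 1 of the 9 after vehicle, against 5.52%, and 2 of the 9 after FGF19, against 12.5%. Peaks over 1 kb from any start and in a last exon were 11.1% of the vehicle list and 5.74% of the FGF19 list. Among peaks common to both lists, as those of Tat, Hpd and Tdo2 are, the shares were 17.1% and 16.9%. All last-exon peaks of this class stood a median of 110 bp (vehicle) and 79 bp (FGF19) after the first base of the stop codon. Of those with a stop codon, 71.5% and 70.9% lay within 400 bp of it, as the summits of Tat and Tdo2 did. The Hpd summits also lay within 400 bp of a stop codon. They are outside this class, being within 1 kb of the start of Hpd-006. The median fold enrichment of the class was 5.24 after vehicle and 4.97 after FGF19.

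The markers of liver cell types were read in the same way, since the files hold binding and no expression. Of 8 hepatocyte markers 7 matched the annotation, and 6 of these, Alb, Apoa1, Apoa2, Apob, Ttr and Hnf4a, had a peak in both lists and a summit in their own last exon. None of the 4 Kupffer cell, 4 stellate cell or 4 endothelial markers had a peak in either list, and among 4 cholangiocyte markers Sox9 had one after FGF19. Of the marker peaks, 17 of 24 after vehicle and 13 of 20 after FGF19 were not of the last-exon class, counting last exons of any gene. Alb alone gave 9 of those 17 and 7 of those 13. An Apoa1 peak in each list was counted as last exon but lay outside Apoa1, in the last exon of the neighbouring gene Apoc3. Alb had 9 of its 10 vehicle peaks and 7 of its 8 FGF19 peaks outside the last exon. The largest vehicle fold enrichment of Alb was 25.9 elsewhere and 9.11 in the last exon, and that of Hnf4a 5.35 and 3.93. At Apoa1, Apoa2, Apob and Ttr the order was the reverse. Their largest vehicle values were 6.87, 4.34, 4.67 and 6.17 elsewhere, against 9.57, 14.7, 6.67 and 11.8 in the last exon. None of the Kupffer, stellate, endothelial or cholangiocyte markers had a last-exon summit. Over all protein-coding genes, 7.93% had a peak after vehicle and 16.3% after FGF19, and 0.706% and 0.769% had a last-exon summit. At these shares a list of 4 genes without a peak is not unusual, so these lists set no contrast with hepatocytes. Whether the hepatocyte marker peaks bear on Tat, Hpd and Tdo2, which hepatocytes express, was not tested.

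The genes nearest to Tat by pattern, taken as the largest fold enrichment in each of the 2 libraries, were Mapkapk5 (12.6 after vehicle and 7.03 after FGF19, at a distance of 0.09 on the log2 scale) and Ankle2 and Golga3 (11.7 and 7.44 for both, at 0.13). Ankle2 and Golga3 share their value within each list and both lie on chromosome 5, and they were not shown to be separate sites. With 2 libraries this likeness says only that the values are close.

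Other genes of the same pathways were then examined, 25 in all, covering the cofactor tetrahydrobiopterin, side branches, transaminases and amino acid transporters. Of these, 4 had a peak after vehicle, 8 after FGF19 and 2 in both lists, while 6 had one only after FGF19 and 2 only after vehicle. Over all protein-coding genes the same classes held 7.93%, 16.3%, 4.31%, 12.0% and 3.62%. Pcbd1, which helps to regenerate the cofactor, had a last-exon peak after FGF19 (5.29, 42 bp after the first base of the stop codon), and Qdpr, which reduces it, had one after vehicle (2.70, 105 bp after it). Of the genes that make the cofactor, Gch1 (4.11) and Spr (4.14) had a peak near the start after FGF19 and Pts (3.56) near the start after vehicle.

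Gstz1, which encodes the maleylacetoacetate isomerase between HGD and FAH, combined both kinds of site. Its last-exon peak had a fold enrichment of 4.66 after vehicle, with the summit 266 bp after the first base of the stop codon, and 6.79 after FGF19, with the summit 353 bp after it. After FGF19 it also had a peak 286 bp upstream of a start, with a fold enrichment of 4.51. Pomt2 lies within 5 kb of that peak too, so this site cannot be given to Gstz1 alone. The transaminase genes Got2 (4.77, near the start) and Ccbl2 (4.24, in an intron) and the amino acid transporter gene Slc7a5 (3.17, near the start) had a peak only after FGF19. The peaks within 5 kb of Il4i1, an amino acid oxidase gene, had a fold enrichment of 4.10 after vehicle and 6.10 after FGF19, but they lie in the last exon of the neighbouring gene Atf5 and outside Il4i1.

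Other pathways of amino acid breakdown were set beside these. Of 9 urea cycle and nitrogen genes, 4 had a peak after vehicle and 5 after FGF19, with last-exon summits at 3 and 4. These stand beside 7.93% and 16.3% of all genes with a peak and 0.706% and 0.769% with a last-exon summit. The largest fold enrichment was at Arg1 after vehicle (7.87) and at Cps1 after FGF19 (7.59). Of 10 methionine and one-carbon genes 3 had a peak in both lists, with a last-exon summit at 1 in each list, or at 2 by coding starts alone. The largest values were at Mat1a after vehicle (10.3) and Gnmt after FGF19 (4.46). The exact binomial interval of the 9 breakdown genes, 21.2 to 86.3 after FGF19, contains the FGF19 share of both lists, and no difference between the lists was tested.

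**Figure D4:**
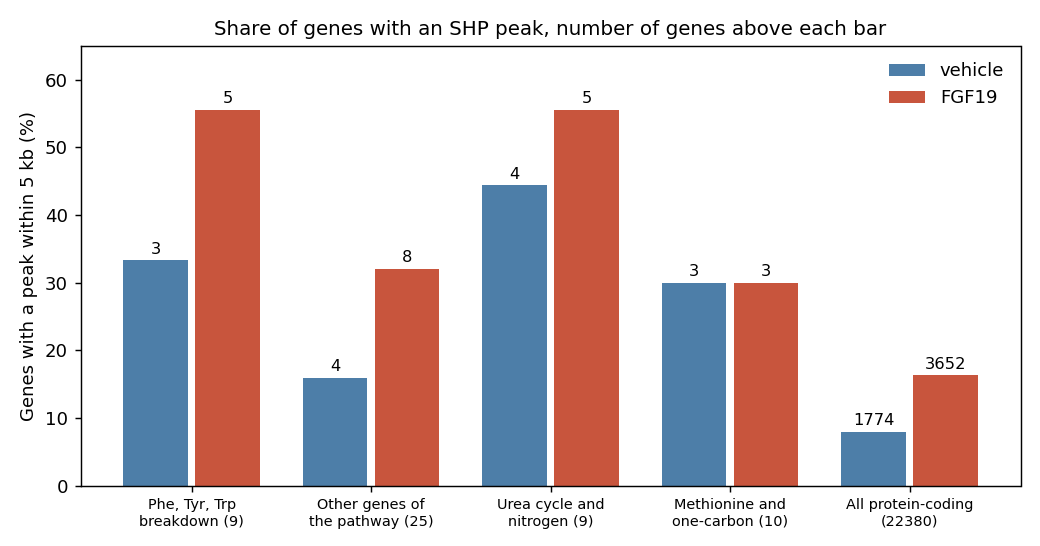
Percentage of genes with an SHP peak within 5 kb after vehicle (blue) and FGF19 (red) for 4 gene lists and for all 22380 protein-coding genes, with the number of genes above each bar. The 9 breakdown genes stand at 33.3% and 55.6%, next to 7.93% and 16.3% of all protein-coding genes.

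Of the 6 motifs, the letters of 4 were found at none of the 8 summit windows, namely CCCCGCCCC (SP1), AANATGGC (YY1 core), AGAACA (glucocorticoid receptor half-site) and TGACGTCA (cAMP response element). All motifs were searched on both strands. The 8 windows come from only 5 genes, so an absence from them says little. Over all peaks, AGAACA was found in 7.89% of vehicle and 5.91% of FGF19 windows, and AGGTCA in 9.08% and 7.15%. The shares were 13.1% and 14.8% for CCCCGCCCC, 9.75% and 7.56% for AANATGGC, and 1.53% and 1.87% for TGACGTCA. In last-exon peaks they were 19.6% and 14.9% for AGAACA, 13.1% and 13.3% for AGGTCA, and 0.595% and 1.1% for CCCCGCCCC. In the windows from 250 bases before to 50 after coding starts, AGGTCA was found for 5 of the 9 genes, Hgd, Tdo2, Kmo, Kynu and Haao, against 21.0% of genes. None of these 5 genes had an SHP peak within 1 kb of a coding start. AGAACA was found there for 4 of the 9, Fah, Tdo2, Kmo and Haao, against 24.8% of genes, and ATTGGC for 3, Tat, Fah and Tdo2, against 20.9%. A match of letters is a description of the sequence and no sign of a bound site.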

How the data were processed

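SHP ChIP and input libraries from mouse liver were pooled from 3 mice per group. The authors aligned reads to mm9 with Bowtie 1.0.0, allowing 2 mismatches, and ran MACS2 2.0.10.20130501 on each ChIP library with the matching input as control (q-value cutoff 0.05, 1 tag kept per position). CASAVA 1.8.2 is also named in the submitters' processing notes. The deposited pileup is a signal in extended tags (240 bp vehicle, 260 bp FGF19). The deposited fold enrichment is a ratio of pileup to local input background. The deposited −log10 p-value is the authors', as is the −log10 q-value. The reads were not analysed here.

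Background was computed as (pileup + 1) / fold enrichment − 1. Peaks within 5 kb of a GENCODE M1 gene were assigned to it, and peaks sharing at least 1 bp were common. All 9 genes were named, with every gene within 5 kb of their peaks, every listed pathway gene with a peak, the strongest gene of each comparison list and the 3 genes nearest to Tat. An item under this rule is not reported here, and counts leave it out. Members and lists were chosen with earlier results of these data known. Intervals are 95% exact binomial, Wilson, Poisson or, for ratios, conditional binomial. The functions for gene assignment, overlap, clustering and the ratio interval gave the planted answer on simulated data in 8 of 8 checks. The motif search and the distances to starts and stop codons were not checked in this way. Alternatives changed the margin, threshold, overlap, gene models, start sites and measure of binding. Software was Python 3.11.15 with scipy 1.17.1, pandas 2.3.3, numpy 2.4.6 and matplotlib 3.10.9.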

Additional observations from a re-analysis of the deposited data

How the results depend on the processing

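Over 57 alternatives to 12 results, 43 left the result as it was, 10 moved a count or share and 4 reversed a direction. Ratios were judged by direction, and counts within 1.5 times of the main value were held unchanged. Both background shares over all annotated genes were counted as moved, although they too changed by less than 1.5 times. With normalised pileup in place of fold enrichment, the log2 ratio of FGF19 to vehicle turned from -0.81 to 0.23 at Tat and from -0.27 to 0.48 at Tdo2. Divided also by the extension length, a step chosen after seeing the data, it was 0.11 and 0.37. This measure leaves out the input background. The number of genes with a peak only after FGF19 fell from 2 to 1 with the FGF19 list trimmed to the length of the vehicle list, and to 1 with gene bodies from protein-coding transcripts. Both alternatives leave Fah and lose Kmo. Restricting to summits within 1 kb of an own start, also chosen after seeing the data, left 1 gene after vehicle, 2 after FGF19, 1 in both lists and 1 after FGF19 only. The count of vehicle peaks within 1 kb of a start went from 1 to 0 by peak centre and to 0 by coding starts, since the site is Hpd. Over all annotated genes the background shares were 5.48% and 11.5%. No paired analysis was possible because each group is 1 pooled library. No library could be left out for the same reason, and sites below the authors' cutoff could not be detected.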
